A study of Mus musculus with 10 samples.

Results

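Open chromatin was described at 4 mouse loci named for genes of primed pluripotency, the state of the epiblast after implantation: Fgf5, Otx2, Pou3f1 and T. The loci are fixed intervals on mouse build mm9, chr5:98620000-98725000 for Fgf5 with its upstream enhancers, chr14:49220000-49345000 for Otx2, chr4:124310000-124360000 for Pou3f1 and chr17:8600000-8660000 for T. Every site of the 4 deposited site lists that shared at least 1 bp with a locus was a member. These were 422 of 1816946 sites: 167 of 387312 in EpiSC, 60 of 555868 in NSC, 62 of 431911 in MEF and 133 of 441855 in ESC. By locus, 107 lay at Fgf5, 169 at Otx2, 61 at Pou3f1 and 85 at T. Membership used position alone, not a score or a cell type.

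The sites come from FAIRE-seq, an assay that fixes chromatin with formaldehyde, shears it and sequences the DNA left in the aqueous phase of a phenol-chloroform extraction, which is enriched for stretches poor in nucleosomes. EpiSC were epiblast stem cells of the E3 line, expanded in medium conditioned by fibroblasts with 5 ng/ml FGF2 on mitomycin C-treated MEF feeders, and kept without feeders for 2 days before crosslinking. NSC were ES-derived neural progenitors grown in N2B27 with FGF-2 and EGF at 10 ng/ml each. MEF were fibroblasts of embryos at E16.5 in DMEM with 10% serum, and ESC were E14 cells (ES-E14Tg2a) on gelatin in N2/B27 with 1000 U/ml LIF, the MEK inhibitor PD032590 at 1 uM and the GSK3 inhibitor CH99021 at 3 uM (names as labelled), the ground-state condition. The series holds 10 samples in 5 groups of 2, the fifth being sheared genomic DNA, and 1 list per cell type was analysed, filed with replicate 2. The source field of the MEF samples names NSC chromatin, whereas the title calls them fibroblasts, as does the cell type, and the title was followed here. With 1 list per cell type, no difference between cell types has a replicate check or a test, and the depth of the lists is unknown. No gene expression was measured, no annotation of mm9 was used here, and the cell types could not be checked against marker genes.

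Fgf5 encodes a secreted fibroblast growth factor, and its rise is a common marker of the exit from the ground state. In mouse epiblast-like cells it is driven by several enhancers upstream of the gene. Otx2 is a homeodomain factor that helps to direct the change of enhancer use between the naive and the primed state and later acts in the forebrain and eye. Pou3f1, also called Oct6, is a POU-domain factor of the epiblast and the early neural lineage, and T, or Brachyury, is the T-box factor of the primitive streak, the nascent mesoderm and the notochord, activated by Wnt signals.

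The promoters of these genes are shown because the genes are the members and their promoters differ widely in base composition. Of the 4 genes, 3 had an entry in the RefSeq promoter table, and Pou3f1 had none. The table is on build GRCm38.p6, not mm9, so these promoters are not placed among the sites. Each run is the 250 bases before the start of the gene, read 5′ to 3′ in the direction of the gene. For Otx2 the most upstream of 4 starts was taken. Capitals mark matches, on either strand, to any of 6 short motifs, whose letters are given with the results that follow.
Fgf5, chr5:98253934-98254183, + strand: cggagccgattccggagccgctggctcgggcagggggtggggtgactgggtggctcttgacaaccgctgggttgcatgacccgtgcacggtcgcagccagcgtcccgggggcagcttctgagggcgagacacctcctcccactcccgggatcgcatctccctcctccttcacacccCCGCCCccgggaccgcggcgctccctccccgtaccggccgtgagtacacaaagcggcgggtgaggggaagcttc
Otx2, chr14:48667645-48667894, - strand: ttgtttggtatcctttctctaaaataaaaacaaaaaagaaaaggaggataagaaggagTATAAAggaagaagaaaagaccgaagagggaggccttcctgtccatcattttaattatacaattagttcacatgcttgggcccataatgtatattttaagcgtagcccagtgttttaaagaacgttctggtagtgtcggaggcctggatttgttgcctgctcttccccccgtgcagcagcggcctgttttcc
T, chr17:8434173-8434422, + strand: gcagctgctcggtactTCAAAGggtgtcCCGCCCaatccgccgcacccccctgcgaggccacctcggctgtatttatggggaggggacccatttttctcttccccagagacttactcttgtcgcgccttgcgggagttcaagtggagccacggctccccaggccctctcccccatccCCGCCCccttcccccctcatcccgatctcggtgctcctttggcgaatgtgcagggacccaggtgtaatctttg

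The Fgf5 promoter was rich in G and C, at 70.8% with 24 CpG, the T promoter had 62.8% with 14 CpG, and the Otx2 promoter had 42.0% with 6 CpG. Over all 32851 promoters of the table the medians were 52.4% and 6 CpG. The GC box was searched as GGGCGG, and Fgf5 held 1 and T held 2, a motif found in 32.7% of all promoters. The core of TCF/LEF sites, which Wnt signals act through, was searched as TCAAAG, and T held 1, 234 to 229 bases before the start, as did 13.8% of promoters. The TATA box was searched as TATAAA, found in 12.4%, and Otx2 held 1, 192 to 187 bases before the start. A core of OTX sites, searched as GGATTA, was in none of the 3 windows and in 6.25% of promoters. The octamer bound by POU factors, searched as ATGCAAAT, was likewise in none of them and in 1.60% of promoters. A core of T-box sites, searched as AGGTGTGA, was in none of them and in 1.12% of promoters. These are matches of letters and not sites of binding.

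The 4 loci did not behave alike across the cell types. Fgf5 was open mainly in EpiSC and next in MEF, Otx2 and T were open in both pluripotent cell types, and Pou3f1 was covered most in EpiSC, by wide sites. EpiSC covered 20.5% of the Fgf5 locus, 29.8% of Otx2, 52.0% of Pou3f1 and 30.2% of T. NSC covered 2.51%, 7.80%, 16.9% and 10.2% of the same loci. MEF covered 11.5%, 3.00%, 3.83% and 7.96%, and ESC covered 5.10%, 33.6%, 16.9% and 27.9%. EpiSC thus had the highest coverage at Fgf5, Pou3f1 and T, and ESC at Otx2. Over the autosomes as a whole the lists covered 7.02% of bases in EpiSC, 10.0% in NSC, 6.69% in MEF and 9.14% in ESC.

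**Figure D1:**
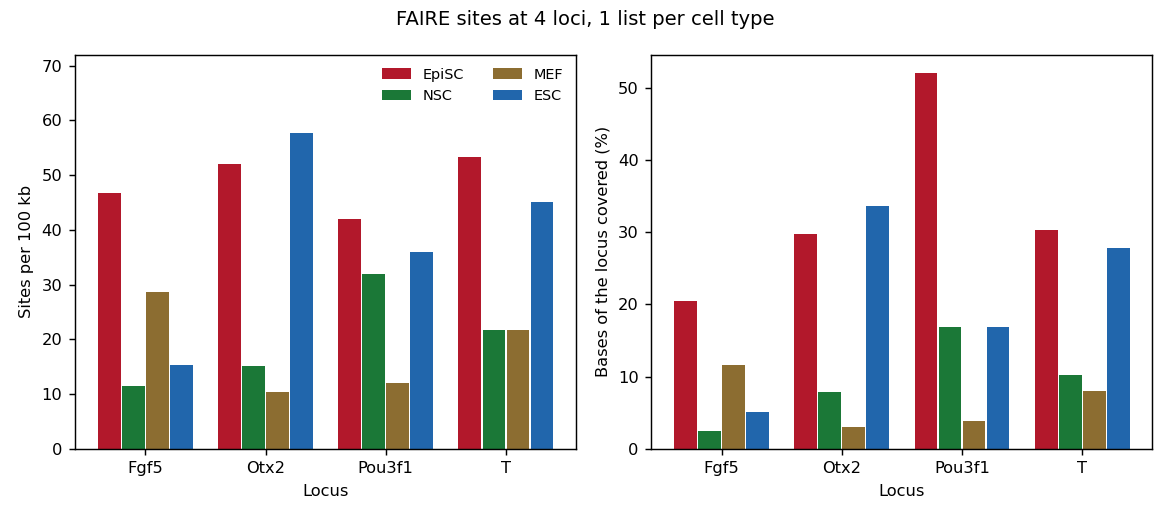
FAIRE sites per 100 kb (left) and percent of bases covered by sites (right) at each locus, with 1 bar per cell type from 1 list each and hence no error bar. EpiSC stood at 46.7 sites per 100 kb at Fgf5, against 15.2 in ESC, while at Otx2 the numbers were 52.0 and 57.6.

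The dense opening in EpiSC was common to the 4 loci when each was set against its own list. The EpiSC density of sites was 2.98 times the autosomal mean at Fgf5, 3.32 times at Otx2, 2.68 times at Pou3f1 and 3.40 times at T. In NSC these ratios were 0.51, 0.68, 1.43 and 0.97, in MEF 1.66, 0.61, 0.70 and 1.26, and in ESC 0.86, 3.25, 2.03 and 2.54. Only Fgf5, then, was below the autosomal mean in ESC. As a rank among autosomal windows of the same length, 1.44% of windows held as many EpiSC sites as Fgf5, 0.37% as many as Otx2, 5.32% as many as Pou3f1 and 0.75% as many as T. For ESC these shares were 46.1%, 2.38%, 22.4% and 13.2%, which puts Fgf5 in the middle of its list.

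EpiSC member sites were also more often among the highest scores than the list as a whole. The score is the authors' own value for each site, its unit is not stated, and it is read here only within its list. Of the EpiSC sites, 11 of 49 at Fgf5, 17 of 65 at Otx2, 5 of 21 at Pou3f1 and 7 of 32 at T were among the 10.0% of the list with the highest scores. In NSC these numbers were 0 of 12, 3 of 19, 0 of 16 and 2 of 13, and in MEF 6 of 30 at Fgf5 and none at the other loci. In ESC they were 1 of 16, 19 of 72, 0 of 18 and 3 of 27, so that among ESC sites Otx2 stood out and Fgf5 did not. Above the median score of the EpiSC list were 32 of 49 EpiSC sites at Fgf5, 45 of 65 at Otx2 and 22 of 32 at T. At Pou3f1 only 11 of 21 were, and the median there, 2.92, was near that of the list, 2.90.

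Fgf5, the ligand gene, had the largest ratio of EpiSC to ESC of the 4 loci. EpiSC had 49 sites, NSC 12, MEF 30 and ESC 16. EpiSC sites were thus 3.06 times as many as ESC sites and covered 4.02 times as many bases. With only the highest-scoring 50% of each list the ratio of sites was 6.40. They were 4.08 times as many as those of NSC and 1.63 times those of MEF. By bases covered the ratio to MEF was 1.78. Of autosomal windows of 105 kb with at least 10 sites in either list, 16.7% had at least 2 times as many EpiSC as ESC sites, and by bases, among windows with at least 5% covered in either list, 9.88% did. For NSC the background by sites was 11.7%. For MEF it was 14.2% by sites and 23.1% by bases, and there Fgf5 itself did not reach 2 times. A ratio as high as that of Fgf5 was found in 8.38% of windows for sites and in 2.91% for bases. Of the 303 windows outside the locus that also held 16 ESC sites, 1 had as many EpiSC sites as Fgf5 and the median was 17.

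**Figure D2:**
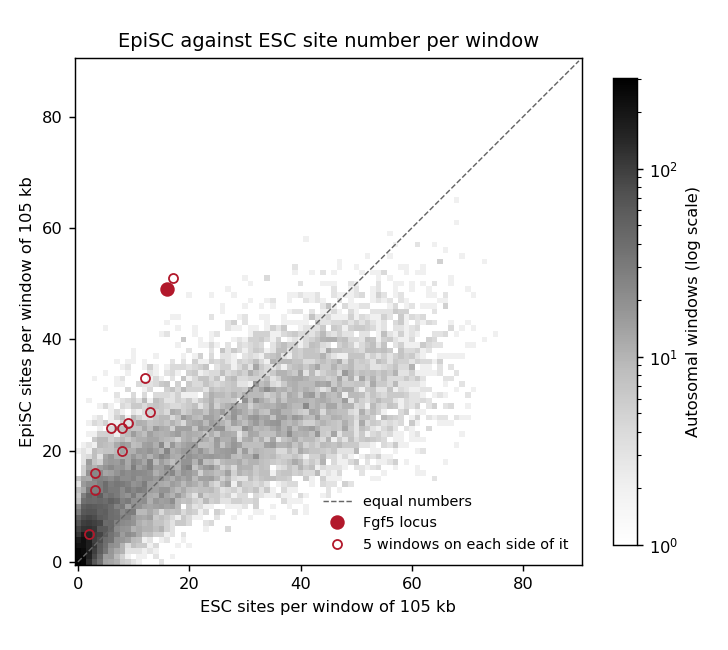
EpiSC sites (y axis) against ESC sites (x axis) in all autosomal windows of 105 kb that hold a site, shaded by the number of windows on a log scale, with the Fgf5 locus as a filled point and the 5 windows on each side as open points. The locus, with 49 EpiSC and 16 ESC sites, and its neighbours lie above the line of equal numbers.

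The excess of EpiSC over ESC was not limited to the interval. The neighbouring windows of the same length held 33 EpiSC sites on the left and 51 on the right, against 12 and 17 ESC sites. In 10 of the 10 windows of 105 kb around the locus, 5 on each side, EpiSC had at least 2 times as many sites and covered at least 2 times as many bases as ESC. Coverage by EpiSC sites nevertheless was highest in the locus itself, 20.5% against 1.02% to 18.2% in the neighbours. In ESC it was 5.10% in the locus, against 0.37% to 6.39% around it. In NSC coverage was 2.51% in the locus, against 1.18% to 10.4% around it, and in MEF 11.5%, against 4.59% to 11.0%. These windows were examined after the locus had been seen to be dense in EpiSC.

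**Figure D3:**
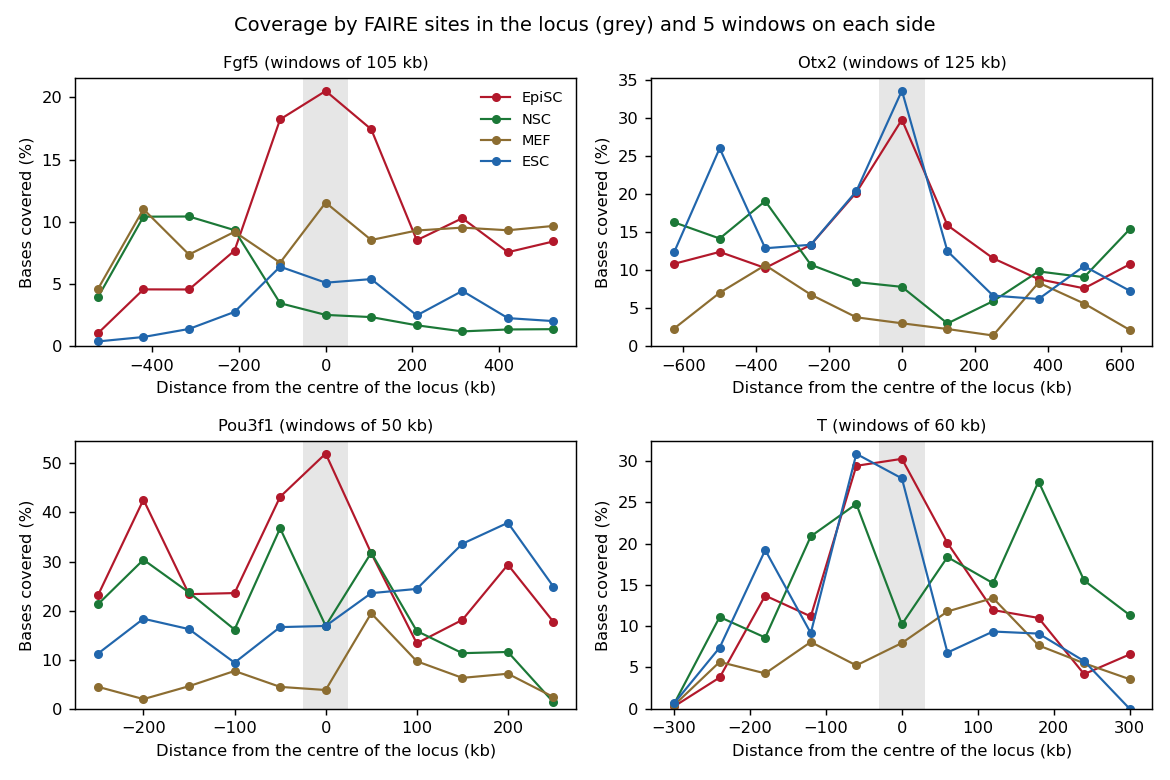
Percent of bases covered by sites of each list in the locus (grey band) and in 5 windows of the same length on each side, by distance from the centre of the locus in kb. At Fgf5, EpiSC reach 20.5% and stay above ESC in every window shown, whereas at Otx2 both pluripotent lists peak at the locus, at 29.8% in EpiSC and 33.6% in ESC.

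Along the Fgf5 locus, coverage in EpiSC increased towards its right end. Over 5 equal parts of 21 kb it was 5.32%, 13.7%, 24.1%, 28.9% and 30.5%. In MEF the parts had 5.33%, 13.2%, 12.8%, 6% and 20.4%, and in ESC 2.20%, 1.32%, 8.10%, 8.74% and 5.13%. The strongest site of both pluripotent lists was the same: chr5:98684648-98685707 in EpiSC (1060 bp, score 11.5, above 98.9% of its list) and chr5:98684701-98685343 in ESC (643 bp, score 14.6, above 99.3%). The widest site of each list lay beside it, at chr5:98681770-98684066 in EpiSC and chr5:98682759-98684031 in ESC. These sites belong to the longest unbroken run of sites of each list, with gaps under 1 kb, of 6058 bp in EpiSC and 3584 bp in ESC. This short segment was therefore open in the ground state as well.

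Most EpiSC sites at Fgf5, in contrast, had no partner in ESC. That was so for 40 of 49 (81.6%, exact 95% interval 68.0 to 91.2), against 55.0% of the whole EpiSC list. In the other direction, 5 of 16 ESC sites lacked an EpiSC partner (31.2%, 11.0 to 58.7), against 59.9% of the ESC list. EpiSC coverage was high here, at 20.5% against 7.02% of the autosomes, and its part in this share was not tested. Of the NSC sites, 12 of 12 lacked an ESC partner (exact interval from 73.5%), against 74.7% of the NSC list. The 40 EpiSC sites without ESC lay a median of 2328.5 bp from the nearest ESC site, against 1778 bp for such sites over the autosomes. The 2 strongest regions of EpiSC alone were chr5:98697070-98697897 (score 8.85) and chr5:98692429-98692662 (score 7.02).

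More EpiSC sites at Fgf5 overlapped MEF than ESC or NSC. Of 49 sites, 20 overlapped a MEF site (40.8%, 27.0 to 55.8), against 29.1% of the list, and 29 did not, against 70.9%. The share of the list lies within this interval. Among bases open in either list, EpiSC shared 17.7% with MEF, against 12.5% over the autosomes, and 17.8% with ESC, against 23.7%. There were 15 EpiSC sites (30.6%) with a MEF partner and neither ESC nor NSC, against 6.56% of the list. ESC and NSC had only 16 and 12 sites at this locus, and the part of that in this class was not tested. After merging the lists into regions, 14 of 70 regions at Fgf5 (20%) were of EpiSC with MEF, a class that makes up 1.90% of all regions. The strongest of the 14 by EpiSC score was chr5:98643419-98643860 (EpiSC score 11.0, MEF score 10.2), which held the second highest site of both lists at the locus, and the next was chr5:98721393-98723220 (EpiSC score 10.5, MEF score 9.89). The region chr5:98663199-98663539, with an EpiSC score of 11.0, was open in NSC as well as in EpiSC and MEF. From the side of MEF, 10 of 30 sites lacked an EpiSC partner (33.3%, 17.3 to 52.8), against 73.4% of the MEF list. Here too EpiSC covered 20.5% of the locus, against 7.02% of the autosomes, and how far that coverage alone gives such overlaps was not tested. The highest MEF score, 11.4, was at chr5:98649455-98650692 and was also an EpiSC site. The EpiSC had been grown on MEF feeders and in medium conditioned by them, and the part of feeder cells in this overlap was not tested. At the other 3 loci the share of EpiSC sites in MEF was 13.8% at Otx2 (9 of 65) and 31.2% at T (10 of 32), and Pou3f1 had 4 of 21.

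**Figure D4:**
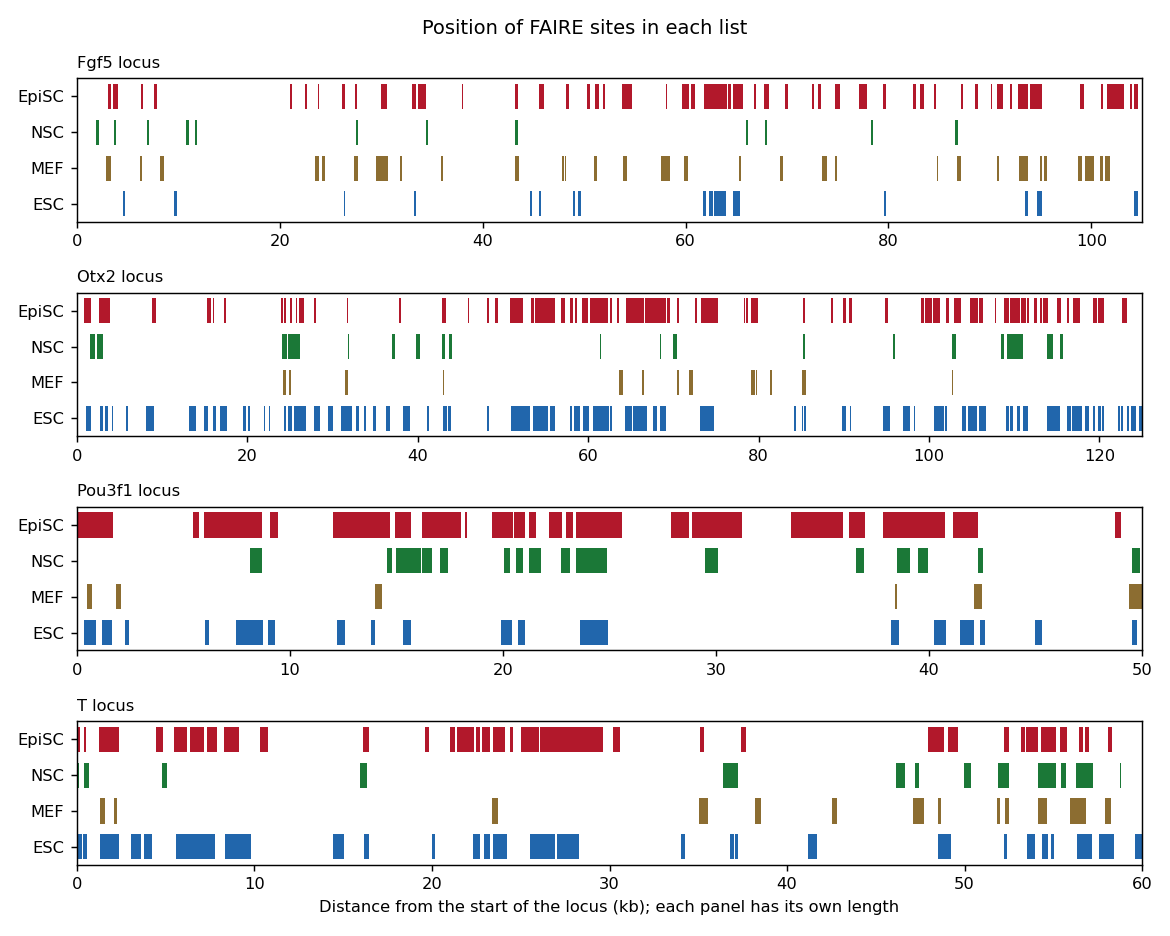
Position of each site (bars) in the lists of EpiSC, NSC, MEF and ESC along the 4 loci, by distance in kb from the start of the locus. At Fgf5 the EpiSC row holds 49 bars and the ESC row 16, with ESC bars crowded at about 62 to 65 kb, and at Otx2 both rows are filled, most of all from 50 to 75 kb.

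Otx2, the homeodomain factor, was open to a like extent in both pluripotent cell types. EpiSC had 65 sites, NSC 19, MEF 13 and ESC 72, and the ratio of EpiSC to ESC was 0.90 for sites and 0.89 for bases. EpiSC sites were 3.42 times as many as those of NSC and 5.00 times those of MEF, where 11.1% and 12.9% of windows of 125 kb had at least 2 times as many EpiSC sites. By bases the ratios were 3.82 to NSC and 9.93 to MEF, and 13.4% and 22.4% of windows reached 2 times. For ESC 17.9% of windows reached it by sites and 9.65% by bases, and Otx2 was not among them. Among the neighbouring 10 windows none had 2 times as many EpiSC as ESC sites, and both lists were denser in the locus than in its flanks, 1.31 times in EpiSC and 1.64 times in ESC. The pair also shared more bases here than over the autosomes: 40.3% of the bases open in either list were open in both, against 23.7%. Shares of bases and of sites rise with coverage, which was also high here, and the part of coverage was not tested.

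Within the Otx2 locus both pluripotent lists had their highest coverage in the middle and their next highest at the right end. The part from 50 to 75 kb was covered to 63.0% in EpiSC, 2.71% in NSC, 5.30% in MEF and 54.7% in ESC. It holds the longest run of EpiSC sites with gaps under 1 kb, chr14:49270865-49290620, with 16 sites over 19756 bp. The last 25 kb were covered to 42.8% in EpiSC, 14.7% in NSC, 0.52% in MEF and 44.8% in ESC, and held 19 EpiSC and 21 ESC sites, the most of the 5 parts in both lists. The part from 25 to 50 kb differed, with 11.8% covered in EpiSC and 30.8% in ESC, and the first 25 kb had 8 EpiSC sites and 16 ESC sites. The longest ESC run, of 7294 bp, lay within these first 50 kb at chr14:49247857-49255150. The first 50 kb of the locus were thus covered more in ESC, and the next 25 kb more in EpiSC, while in the last 25 kb both were near each other.

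Sharing at Otx2 was high in both directions. Of 65 EpiSC sites, 46 overlapped an ESC site (70.8%, 58.2 to 81.4), against 45.0% of the list, and 49 of 72 ESC sites overlapped an EpiSC site (68.1%, 56.0 to 78.6), against 40.1% of the ESC list. Regions of EpiSC and ESC together, without the somatic lists, were 26 of 85 (30.6%), against 5.41% of all regions. The EpiSC sites without an ESC partner numbered 19 (29.2%, against 55.0% of the list) and lay close to ESC sites, at a median of 646 bp. One of them had the highest EpiSC score of all 4 loci, 15.98, above 99.8% of the list, at chr14:49269110-49269446, and no other list had a site there. The highest ESC score of the 4 loci, 18.6, was at chr14:49282585-49282763 and was shared with EpiSC. Of the 85 regions, 5 were open in all 4 lists, among them chr14:49262841-49263370, which held the second highest EpiSC score (14.8) and the highest MEF score (6.74) of the locus.

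Pou3f1, the POU factor, had wider sites in EpiSC than in ESC, and how far the numbers differed depended on the limits of the locus. EpiSC had 21 sites, NSC 16, MEF 6 and ESC 18, so that the ratio of EpiSC to ESC was 1.17, with 10.6% of windows of 50 kb at 2 times or more. With the locus narrowed by 10 kb on both sides there were 15 EpiSC and 7 ESC sites, a ratio above 2 times. Windows of that shorter length were not counted, so this ratio has no background share. By bases EpiSC covered 3.08 times as much as ESC and as NSC, and 13.6 times as much as MEF. In sites the ratio was 1.31 to NSC and 3.50 to MEF, where 13.1% and 21.3% of windows reached 2 times. At least 2 times the bases was found in 13.1% of windows for ESC, 16.6% for NSC and 25.4% for MEF, and a ratio to ESC as high as that of Pou3f1 in 7.14%. The coverage of 52.0% was reached by 0.036% of autosomal windows in the EpiSC list. The median width of the sites was 852 bp in EpiSC, 408.5 bp in NSC, 290.5 bp in MEF and 353 bp in ESC, whereas over whole lists it was 338 bp in EpiSC and 373 bp in ESC. Of the 21 EpiSC sites, 6 were at least 2 kb wide, and none of the other lists had such a site here.

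In EpiSC the opening at Pou3f1 ran through most of the interval and was thinnest in its last 10 kb. Over 5 parts of 10 kb, EpiSC covered 50.2%, 58.6%, 63.5%, 65.7% and 22.0%. NSC covered 5.44%, 21.4%, 36.5%, 15.4% and 5.77%, and ESC 30.3%, 10.5%, 19.99%, 3.46% and 20.1%. ESC coverage was therefore low in the part from 30 to 40 kb, where EpiSC coverage was highest. The largest region of EpiSC alone lay there, chr4:124343498-124345975, 2478 bp wide with a score of 5.30. The highest EpiSC score at Pou3f1, 7.88, was above 94.2% of the list, at chr4:124309804-124311671, which crosses the left edge of the locus.

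NSC overlapped more EpiSC sites at Pou3f1 than ESC or MEF did, but ESC shared slightly more bases. Among bases open in either list, EpiSC shared 26.6% with ESC, against 23.7% over the autosomes, and 24.8% with NSC, against 15.0%. The share with ESC was thus near its autosomal value, and that with NSC was further above its own. Of 21 EpiSC sites, 13 overlapped NSC (61.9%, 38.4 to 81.9), against 38.9% of the list (61.1% without NSC), 10 overlapped ESC (47.6%, 25.7 to 70.2), against 45.0%, and 4 overlapped MEF, against 29.1%. For NSC and for ESC the share of the list lies within the interval. NSC sites overlapped EpiSC in 14 of 16 cases (87.5%, 61.7 to 98.4) and ESC in 8 of 16. Over the NSC list these shares were 26.7% and 25.3% (73.3% of that list had no EpiSC partner). ESC sites overlapped EpiSC in 14 of 18 cases (77.8%, 52.4 to 93.6), against 40.1% of the ESC list. EpiSC covered 52.0% of this locus, against 7.02% of the autosomes, and how far that coverage alone gives such overlaps was not tested. There were 6 EpiSC sites in NSC and in neither ESC nor MEF (28.6%, against 11.7% of the list), which in merged regions made 5 of 24 of EpiSC with NSC (20.8%, against 3.25%, and 2 with lists cut to equal length), and of which the strongest formed the region chr4:124338856-124341204. Regions of all 4 lists were 3 of 24, the widest of them chr4:124347837-124350780. The surroundings were open as well, with EpiSC coverage of 43.2% and 31.7% in the flanking windows and ESC coverage of 16.6% and 23.6%. NSC covered 36.8% and 31.8% of these windows, against 16.9% of the locus. EpiSC and NSC coverage were thus closer to each other beside the locus than in it. Site density in the locus was 0.82 times that of its flanks in EpiSC and 0.92 times in ESC. Further to the right the order turned, and in the 4 windows from 100 to 300 kb past the locus's left edge EpiSC covered less than ESC, for example 18.1% in EpiSC and 33.6% in ESC from 150 to 200 kb.

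T, the T-box gene of the primitive streak, was again open in both pluripotent cell types. EpiSC had 32 sites, NSC 13, MEF 13 and ESC 27, which makes a ratio of EpiSC to ESC of 1.19 for sites and 1.08 for bases. With the locus widened by 10 kb on both sides the order of coverage turned, at 26.2% in EpiSC and 27.4% in ESC. For ESC 11.9% of windows of 60 kb by sites and 12.4% by bases reached 2 times, and T did not. Against NSC and MEF the ratio was 2.46 for sites, and 13.0% and 19.1% of windows had a ratio of at least 2 times. By bases it was 2.96 to NSC and 3.80 to MEF, with 15.9% and 24.8% of windows at 2 times or more. EpiSC and ESC shared 42.4% of the bases open in either, the highest value of the 4 loci. Of the EpiSC sites, 22 overlapped ESC (68.8%, 49.99 to 83.9), against 45.0% of the list. The 10 without ESC overlap lay a median of 304 bp from an ESC site, 9 of them within 1 kb, against 1778 bp and 36.2% within 1 kb over the autosomes. Such shares and distances also depend on how densely a locus is covered, and the part of this was not tested.

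The T locus held stretches open in the pluripotent cells and one open in every cell type. The first 12 kb were covered to 43.1% in EpiSC, 6.04% in NSC, 4.14% in MEF and 52.0% in ESC. From 24 to 36 kb EpiSC covered 45.2%, NSC 0%, MEF 4.18% and ESC 26.4%. The widest EpiSC site of the 4 loci, 3532 bp, was in this part at chr17:8626081-8629612, and the highest EpiSC score of the locus, 14.6, stood just left of it at chr17:8622838-8623252. Both were shared with ESC and with no somatic list. The last 12 kb, in contrast, were covered to 36.0% in EpiSC, 28.8% in NSC, 18.8% in MEF and 33.4% in ESC. All 3 regions of the locus that were open in all lists lay there, within chr17:8651852-8657264, and so did the highest NSC score of the 4 loci, 18.6, at chr17:8651868-8652504. Between these parts, from 36 to 48 kb, EpiSC had 1 site and covered 2.52%, against 13.1% in NSC, 10.2% in MEF and 7.58% in ESC. The 60 kb to the left of the locus were covered about as much as the locus itself, to 29.4% in EpiSC and 30.8% in ESC. To the right of the locus the pluripotent lists parted, with 20.1% covered in EpiSC and 6.81% in ESC in the next 60 kb. NSC covered 24.8% on the left and 18.4% on the right, against 10.2% in the locus.

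**Figure D5:**
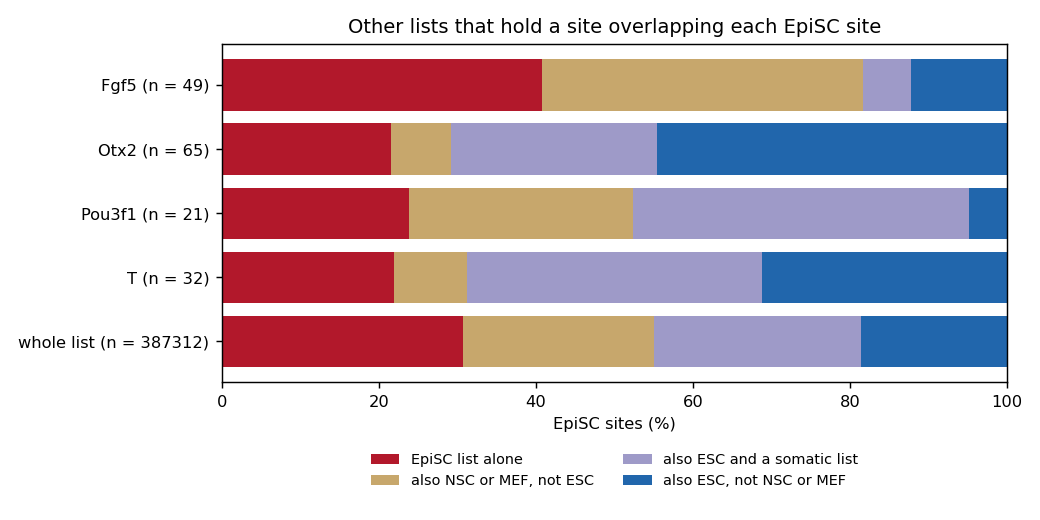
Percent of EpiSC sites at each locus, and in the whole EpiSC list, that are found in EpiSC alone, with NSC or MEF but not ESC, with ESC and a somatic list, or with ESC only. At Fgf5 81.6% lack ESC, against 29.2% at Otx2, 52.4% at Pou3f1 and 31.2% at T.

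Among the EpiSC sites as a group, the 4 loci had 80 of 167 without an ESC partner, or 47.9%, against 55.0% of the list, with Fgf5 above that share, Otx2 and T below it, and Pou3f1 near it at 52.4% (29.8 to 74.3). EpiSC sites in no other list were 20 of 49 at Fgf5 (40.8%), 14 of 65 at Otx2 (21.5%), 5 of 21 at Pou3f1 (23.8%) and 7 of 32 at T (21.9%), against 30.7% of the list. EpiSC sites in NSC or MEF and not in ESC were 20, 5, 6 and 3 at the same loci, against 24.4% of the list, and sites in all lists were 0, 5, 2 and 5, against 11.1%. Over the 4 loci 46 of 167 EpiSC sites (27.5%, 20.9 to 35.0) were in no other list. The EpiSC score had no common order across the loci between sites shared with ESC and no somatic list and sites without ESC. At T its median was 4.91 over the 10 sites shared with ESC and no somatic list and 2.28 over the 10 without ESC. At Otx2 it was 3.36 over 29 shared sites and 4.91 over 19 without ESC. At Fgf5 it was 4.36 over 6 and 3.57 over 40, at Pou3f1 1.804 for the 1 shared site and 2.65 over 11, and over the whole list 2.32 and 2.78. Over sites shared with ESC and a somatic list it was 6.84 at Fgf5 (3 sites), 4.87 at Otx2 (17), 7.14 at Pou3f1 (9) and 4.49 at T (12), against 3.56 over the list. Sites in EpiSC alone had lower medians at each locus, 2.66, 4.2, 2.11 and 2.09 in the same order, and 2.61 over the list. Merged regions open in all 4 lists were 0 of 70 at Fgf5, 5 of 85 at Otx2, 3 of 24 at Pou3f1 and 3 of 39 at T, against 4.05% of all regions, and regions of EpiSC alone were 20, 14, 5 and 7, against 10.5%. The intervals are exact but hold only the error of counting, and sites close together depend on each other.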

How the data were processed

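FAIRE-seq sites of EpiSC, NSC, MEF and ESC were analysed, 1 list per cell type, filed with replicate 2; the other 6 samples, genomic DNA among them, were not analysed here. The deposited lists give positions and a score per site that the authors computed; the build is mm9 and the software named is CASAVA 1.8, per the submitters' processing notes. For the aligner, thresholds, use of the control, pooling of replicates and unit of the score nothing is given in the sources consulted. Fragments of 150 to 400 bp were taken through 15 cycles of PCR, per the labels' protocols.

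Starts in the lists were taken to count from 0, and coordinates are printed counting from 1. Overlap means at least 1 shared bp, and regions are the union of overlapping sites from any list. Loci were set beside all autosomal windows of the same length that hold a site, which may include the locus unless stated. A fold of 2 was used for calls. With 1 list per cell type there was no test. Shares carry exact (Clopper-Pearson) 95% intervals. Depth is unknown.

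The loci, gene lists and comparisons were chosen with earlier results of these data known. Sites named are, for each locus and list, the 2 of highest score, the widest and the longest run, the regions of all lists, and the 2 strongest regions of EpiSC alone and of EpiSC with a somatic list; others were chosen after their values were seen. The motifs, neighbouring windows, windows of equal ESC number and the fold were added after the data were seen. The planned list of other primed genes was not placed, since no annotation of mm9 was used here. Computation used scipy 1.17.1, pandas 2.3.3 and numpy 2.4.6 in Python 3.11.15, with figures from matplotlib 3.10.9, and counts were checked on simulated lists.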

Additional observations from a re-analysis of the deposited data

How the results depend on the processing

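No paired analysis was possible because only 1 list stood for each cell type, and for the same reason no replicate could be left out. Under the alternatives, 177 values stayed within 1.5 times (counts and ratios) or within their exact interval (shares and coverage) and 99 moved. The interval of coverage counts bases and is narrow. Values that moved follow, in the order EpiSC, NSC, MEF, ESC where several are given. Where fewer sites or other limits make the change by construction the cause is that; otherwise the cause was not tested.

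With the highest-scoring 50% of each list, coverage was 16.3%, 1.97%, 8.14% and 2.58% at Fgf5, 22.8%, 3.96%, 1.93% and 26.7% at Otx2, 42.1%, 10.9%, 1.16% and 9.91% at Pou3f1, and 24.9%, 4.95%, 3.33% and 22.0% at T. Site numbers were 32 in EpiSC, 17 in MEF and 5 in ESC at Fgf5, 10 in NSC at Otx2, 11, 9, 2 and 8 at Pou3f1, and 4 in NSC and 7 in MEF at T. The ratio of EpiSC to ESC at Fgf5 was then 6.40. The share of EpiSC sites in no other list over the 4 loci was 35.5%, and the share of ESC sites with no EpiSC site was 40.0% over the 4 loci and 45.8% at Otx2.

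With lists of equal length, 387312 sites each, coverage was 2.15% in NSC, 10.5% in MEF and 4.81% in ESC at Fgf5, 5.82% in NSC and 32.1% in ESC at Otx2, 11.5% in NSC and 13.9% in ESC at Pou3f1, and 9.04% in NSC, 6.48% in MEF and 26.9% in ESC at T. NSC had 10 sites at Pou3f1. Regions at Pou3f1 were 9 of EpiSC alone and 2 of EpiSC with NSC, and T had 1 of EpiSC with NSC. The ratio of EpiSC to ESC sites stayed within 1.5 times, at 3.27 at Fgf5, 0.96 at Otx2, 1.40 at Pou3f1 and 1.28 at T.

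With loci narrowed by 10 kb on both sides, coverage was 9.86% in MEF and 5.26% in ESC at Fgf5, 3.57% in MEF and 32.9% in ESC at Otx2, 62.6%, 24.4%, 1.52% and 11.3% at Pou3f1, and 26.1%, 4.92%, 5.46% and 18.1% at T. Sites were then 2 in MEF and 7 in ESC at Pou3f1, where EpiSC had 15, and 16, 5, 6 and 13 at T. Widened by 10 kb, coverage was 22.8%, 2.65%, 11.1% and 6.51% at Fgf5, 28.5% in EpiSC, 3.34% in MEF and 31.8% in ESC at Otx2, 46.2%, 23.6%, 4.77% and 15.8% at Pou3f1, and 26.2%, 9.91%, 6.86% and 27.4% at T, so that ESC passed EpiSC at T. Pou3f1 then had 32 EpiSC and 11 MEF sites.

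Against both flanks, density ratios were 1.17 in EpiSC and 1.14 in NSC at Fgf5, 1.31 in EpiSC, 1.13 in MEF and 1.64 in ESC at Otx2, 0.82 in EpiSC, 0.84 in NSC and 0.92 in ESC at Pou3f1, and 1.31 in EpiSC and 1.26 in ESC at T. All 10 of these had moved from their ratio to the autosomes by over 1.5 times, and Pou3f1 was less dense than its flanks in every list.

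Counting sites by their midpoint, counting sites under 200 bp apart as overlapping, and scaling by the same chromosome moved no value past these limits, but the intervals of small shares are wide. The share of EpiSC sites in no other list at T was 9.38% with sites under 200 bp apart counted as overlapping, against 21.9% as deposited, and at Pou3f1 42.9% with lists of equal length, against 23.8%. At Otx2 it was 33.3% with the highest-scoring 50%, against 21.5%. Requiring 50% of the shorter site put 36.5% of EpiSC sites of the 4 loci and 33.8% at Otx2 in no other list. Merging sites under 200 bp apart gave 9 regions of EpiSC alone, 17 of EpiSC with ESC and 1 of EpiSC with MEF at Otx2, 3 of EpiSC alone, 2 of EpiSC with NSC and 1 of ESC alone at Pou3f1, and 2 of EpiSC alone and 1 of EpiSC with NSC at T.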
